A study of Caenorhabditis elegans with 165 samples.

Results

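A set of 10 genes of synaptic transmission was followed across 12 RNA-seq libraries of Caenorhabditis elegans larvae: snb-1 (T10H9.4), ric-4 (Y22F5A.3), unc-64 (F56A8.7), unc-18 (F27D9.1), unc-13 (ZK524.2), snt-1 (F31E8.2), unc-17 (ZC416.8), unc-25 (Y37D8A.23), unc-47 (T20G5.6) and eat-4 (ZK512.6). They were chosen by their identifiers in the count tables, with earlier results of these data known, and are 10 of 20389 identifiers. All 10 passed the filter on low counts, as did 13186 genes in total. The libraries were made from whole worms of 3 strains, with 4 libraries per strain. In strain YPT41 the X chromosome is joined to chromosome II (X;II), in strain 15eh1 it is joined to chromosome V (X;V), and N2 is the wild-type laboratory strain with separate chromosomes. No further allele, transgene or treatment is named in the labels for any of the 3 strains. The sample labels give the stage as L1-L3, whereas L3 larvae are named for the RNA-seq in the description of the whole study, so the libraries may span several larval stages. The protocols filed with these libraries describe ChIP on fixed embryos and say nothing of how the larvae were grown or the RNA was prepared. Nothing in the labels states that libraries of a strain came from separate cultures, so the p-values below measure the spread between these libraries, which may be partly technical. The series set the fusion strains against N2 to ask how gene expression behaves when an autosome is joined to an X chromosome under dosage compensation.

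Neurons store transmitter in vesicles and release it by fusing those vesicles with the plasma membrane. Fusion is driven by a SNARE complex of synaptobrevin on the vesicle with syntaxin and SNAP-25 on the plasma membrane, prepared by UNC-18 and UNC-13 and triggered by calcium through synaptotagmin. What a neuron releases is set by its synthetic enzymes and vesicular transporters, which is why unc-17, unc-25, unc-47 and eat-4 are used in the worm as identity genes of cholinergic, GABAergic and glutamatergic neurons. In whole-worm RNA, fewer cells of a type and less RNA per cell cannot be told apart.

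Total gene counts per library ranged from 8237095 to 31234047. Levels are given in CPM, that is counts scaled to a common library size, with factors from the trimmed mean of M values (TMM). In a single library 3 counts, taken as the limit of detection, equal 0.0960 to 0.364 CPM. The 10 genes together took 0.0400% to 0.104% of the counts of a library. Replicate 1 stood apart in every strain and went against its larval label. Vitellogenins, the yolk proteins of the adult hermaphrodite intestine, took 6.81% of the counts in YPT41 replicate 1, 12.58% in 15eh1 replicate 1 and 12.2% in N2 replicate 1, against at most 0.0449% in the other 9 libraries. All 15 tested genes of a list of 16 germline and oocyte markers were also higher in the 3 replicate 1 libraries than in the other 9. Of all tested genes, 25.4% were. Markers of neurons were present in every library, with 11 pan-neuronal markers summing to 1612 to 4120 CPM. YPT41 replicate 4 had the highest sum of these markers and also of 8 intestinal markers, with 26363 CPM against 8705 to 14858 CPM for the intestinal markers in the 11 other libraries.

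**Figure D1:**
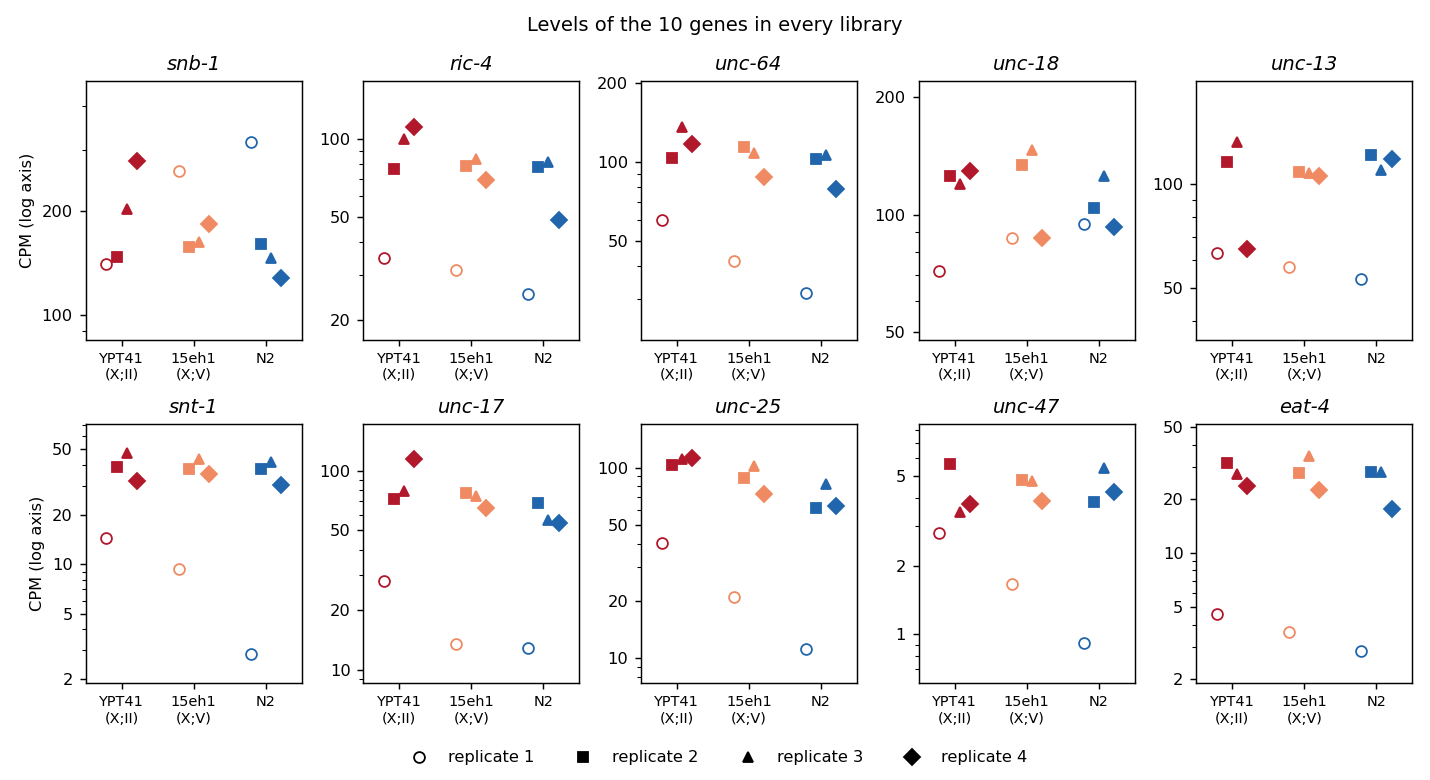
Levels of the 10 genes in each of the 12 libraries, in TMM-scaled CPM on a log axis with a separate range for each gene; each point is 1 library and open circles are replicate 1. Replicate 1 lies below the other libraries in 8 of the 10 panels, and the libraries of the 3 strains overlap for every gene.

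The SNARE genes were counted at moderate levels in all 3 strains. For snb-1, which encodes synaptobrevin, replicates 1 to 4 gave 141, 148, 202 and 278 CPM in YPT41, 261, 157, 163 and 183 CPM in 15eh1, and 316, 161, 147 and 128 CPM in N2. The highest value was in N2 replicate 1 and the lowest in N2 replicate 4, so the N2 libraries spanned those of both fusion strains. The SNAP-25 gene ric-4 had 34.9, 76.6, 99.9 and 111 CPM in YPT41, 31.1, 78.2, 83.4 and 69.5 CPM in 15eh1, and 25.3, 77.8, 81.3 and 48.8 CPM in N2. YPT41 replicates 3 and 4 were the highest of the 12, and the 3 replicate 1 libraries were the lowest. Syntaxin is encoded by unc-64, which was measured at 60.2, 103.6, 135 and 117 CPM in YPT41, at 41.9, 114, 108 and 87.5 CPM in 15eh1, and at 31.6, 103, 106 and 79.0 CPM in N2. Again the replicate 1 libraries were lowest and the remaining libraries of the strains overlapped.

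Among the genes that prepare and trigger fusion, the replicate 1 libraries were lowest for unc-13 and snt-1 but not for unc-18. The syntaxin-binding protein gene unc-18 had 71.8, 125, 119.6 and 129 CPM in YPT41, 87.3, 134, 147 and 87.0 CPM in 15eh1, and 94.5, 103.8, 125 and 93.0 CPM in N2. Its range over the 12 libraries, 2.04-fold, was the narrowest of the 10 genes. The priming factor unc-13 was measured at 63.2, 116, 133 and 64.6 CPM in YPT41, at 57.2, 108, 107 and 105 CPM in 15eh1, and at 53.0, 121, 109.9 and 118 CPM in N2. YPT41 replicate 4 lay with the replicate 1 libraries for this gene and apart from the other 8. Synaptotagmin is the calcium sensor encoded by snt-1, with 14.3, 39.0, 47.2 and 31.8 CPM in YPT41, 9.30, 38.01, 43.5 and 35.2 CPM in 15eh1, and 2.85, 37.97, 41.7 and 30.2 CPM in N2. Its range was the widest over 12 libraries, 16.6-fold, and the narrowest over the 9 libraries of replicates 2 to 4, at 1.56-fold.

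Among the transmitter genes, unc-17 encodes the vesicular acetylcholine transporter. It was counted at 27.9, 72.3, 79.1 and 114 CPM in YPT41, at 13.5, 77.2, 74.5 and 64.6 CPM in 15eh1, and at 12.9, 68.8, 56.4 and 54.4 CPM in N2. Within replicates 2 to 4, the 3 YPT41 libraries lay above the 3 N2 libraries. The RefSeq annotation places cha-1, the choline acetyltransferase gene, across unc-17, and the count tables were made with an identifier for this locus that may hold reads of both. Glutamic acid decarboxylase, which makes GABA, is encoded by unc-25. Its 4 libraries gave 40.4, 103, 111 and 113 CPM in YPT41, 21.1, 88.2, 103 and 72.6 CPM in 15eh1, and 11.2, 61.6, 82.2 and 62.8 CPM in N2. For unc-25 too, YPT41 replicates 2 to 4 all lay above those of N2. They also lay above those of 15eh1, as for 10.5% of tested genes, with 103.2 and 102.6 CPM in the nearest libraries.

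The vesicular GABA transporter gene unc-47 had the fewest reads, 9 to 143 counts per library. It was measured at 2.79, 5.64, 3.46 and 3.75 CPM in YPT41, at 1.67, 4.80, 4.73 and 3.87 CPM in 15eh1, and at 0.915, 3.85, 5.42 and 4.27 CPM in N2. Counting error alone is wide at this depth: the exact 95% Poisson interval of the 9 counts in N2 replicate 1 ran from 0.418 to 1.74 CPM. The glutamate transporter gene eat-4 stood at 4.60, 31.7, 27.5 and 23.6 CPM in YPT41, at 3.66, 28.0, 34.7 and 22.5 CPM in 15eh1, and at 2.85, 28.2, 28.2 and 17.5 CPM in N2. The strains overlapped for both genes, and the replicate 1 libraries were the 3 lowest for each.

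Replicate 1 separated from the other replicates more than the strains separated from each other. For 8 of the 10 genes, the replicate 1 libraries of all 3 strains lay below all 9 other libraries, which 19.1% of the 13186 tested genes also did. The exceptions were snb-1 and unc-18. For eat-4, log2 CPM of replicate 1 minus the mean of replicates 2 to 4 was −2.55 in YPT41, −2.90 in 15eh1 and −3.03 in N2. That was the lowest value of the 10 genes in both fusion strains, while in N2 it was snt-1 that was lowest, at −3.62, against −1.43 in YPT41 and −2.05 in 15eh1 for this gene. The 4 transmitter genes had median differences of −1.53 in YPT41, −2.22 in 15eh1 and −2.40 in N2. For the 6 genes of the release machinery the medians were −0.88, −1.10 and −1.27 in the same order of strains, and over all tested genes they were −0.06, −0.10 and −0.16. In 15eh1 and N2, snb-1 went the other way, at 0.64 and 1.13, while it was −0.53 in YPT41. The 11 pan-neuronal markers were lower by less, with medians of −0.58 in YPT41, −0.62 in 15eh1 and −0.39 in N2. For 4 of them replicate 1 lay below all 9 other libraries and for 2 above, beside 19.1% and 25.4% of tested genes. The 9 vesicle recycling genes had medians above 0, at 0.05 in YPT41, 0.49 in 15eh1 and 0.43 in N2. The germline and oocyte markers had medians of 4.74 in YPT41, 5.26 in 15eh1 and 4.95 in N2 in the same libraries. Muscle markers were lower there as well, with medians of −0.68, −0.95 and −1.01 for 8 body wall muscle genes and −1.42, −2.21 and −1.85 for 4 pharyngeal muscle genes in YPT41, 15eh1 and N2. The part of age, germline RNA or cell composition in the lower values of replicate 1 was not tested.

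**Figure D2:**
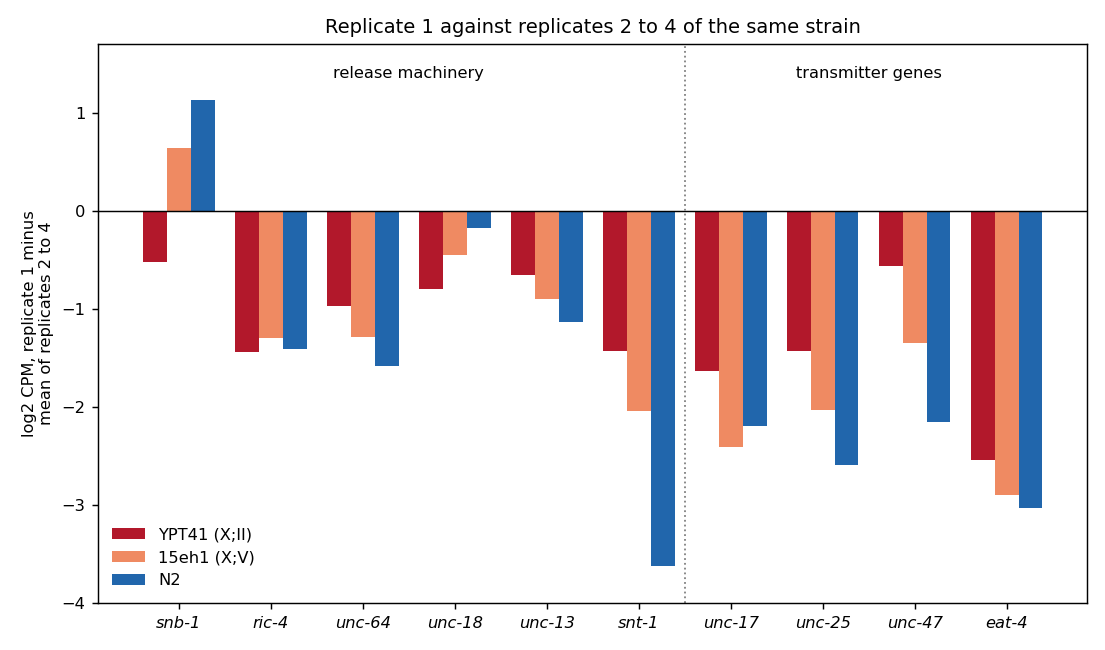
Difference in log2 CPM between replicate 1 and the mean of replicates 2 to 4 of the same strain, as 1 bar per gene and strain; the dotted line separates the 6 release machinery genes from the 4 transmitter genes. All bars are below 0 except those of snb-1 in 15eh1 and N2, and eat-4 has bars from −2.55 to −3.03.

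The transmitter genes kept unequal proportions across libraries. The ratio of unc-25 to unc-47 counts, 2 genes of the same GABAergic neurons, was 14.5, 18.3, 32.0 and 30.0 in YPT41 replicates 1 to 4, 12.6, 18.4, 21.7 and 18.8 in 15eh1, and 12.2, 16.0, 15.2 and 14.7 in N2. YPT41 replicates 3 and 4 had the 2 highest ratios of the 12 libraries, with unc-47 counts of 31 and 60 behind them. The ratio of eat-4 to unc-17 counts was 0.165, 0.438, 0.348 and 0.207 in YPT41, 0.271, 0.363, 0.465 and 0.348 in 15eh1, and 0.220, 0.410, 0.501 and 0.322 in N2. It was lower in replicate 1 than in each other replicate of its strain. For unc-25 to unc-17 the counts stood at 0.990 to 1.45 in YPT41, 1.13 to 1.57 in 15eh1 and 0.866 to 1.46 in N2, and the 3 ranges overlapped.

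In YPT41 against N2, the question is whether joining X to chromosome II went with a change in these genes. A fold change above 0 was found for 9 of the 10, with a median log2 fold change of 0.21, while 52.3% of all tested genes lay above 0 with a median of 0.03. Without N2 replicate 1 the median of the 10 genes was −0.02, and in replicates 2 to 4 of all strains it was 0.15. Over those replicates 7 of the 10 genes lay above 0, beside 51.4% of tested genes. The largest fold changes over 4 replicates were those of unc-25, with 91.7 ± 34.5 CPM in YPT41 and 54.4 ± 30.3 CPM in N2 (SD, n = 4 each), and unc-17, with 73.3 ± 35.3 CPM in YPT41 and 48.1 ± 24.3 CPM in N2. None of the 10 passed the test in the edgeR fit with strain as the only term, and 0 had an unadjusted p under 0.05, where 8.82% of tested genes did. In that fit 29 genes in all were called at an adjusted p of 0.05, which is 0.220% of those tested. The log2 fold change of unc-25 was 0.75 ± 0.59 (SE, 95% interval −0.54 to 2.05, edgeR adjusted p = 0.822), and that of unc-17 was 0.61 ± 0.61 (adjusted p = 0.851). For ric-4 it was 0.47 ± 0.46 and for unc-64 0.38 ± 0.42. The other 6 lay between −0.10 for unc-13 and 0.23 for snt-1. These intervals are wide, so changes as large as 2-fold in either direction were within the 95% interval for eat-4 and snt-1.

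Deviations from the strain mean correlated between libraries of the same replicate number, at 0.319 to 0.942. This rested largely on replicate 1, since without it the correlations spanned −0.12 to 0.44. A fit that kept the replicate number as a block made 1 call among the 10 genes. That gene was unc-25, higher in YPT41 with a log2 fold change of 0.96 ± 0.22 (95% interval 0.47 to 1.44, edgeR adjusted p = 0.0332), and higher in 4 of 4 same-numbered pairs. The block raised calls over the whole table to 541 higher and 145 lower genes, so 4.10% of tested genes were called higher. The next member by size was unc-17, at 0.70 ± 0.22 (adjusted p = 0.0872). The call of unc-25 was not made when replicates 2, 3 or 4 were left out of the blocked fit in turn, with adjusted p-values of 0.126, 0.0806 and 0.158. In replicates 2 to 4 alone its log2 fold change was 0.55 ± 0.19 (adjusted p = 0.191), or 0.57 with the block (adjusted p = 0.160). The pair differences in log2 CPM were 1.84, 0.74, 0.43 and 0.84 for replicates 1 to 4, so the pair of replicate 1, where unc-25 was lowest in both strains, gave the largest. The TMM factor was 0.778 in YPT41 replicate 4 and 1.07 in N2 replicate 4, so the difference of pair 4 depends on this scaling. Per count of snb-1, which itself varied, unc-25 was higher in YPT41 in pairs 1 and 2 and lower in pairs 3 and 4. The ratios were 0.287, 0.699, 0.547 and 0.405 in YPT41 and 0.0354, 0.383, 0.560 and 0.491 in N2. In the same pairs of libraries, the 8 intestinal markers included 2 that were called higher with the block, cpr-1 and elt-7, and the 11 pan-neuronal markers included 0. Neither intestinal gene was called in replicates 2 to 4, with or without the block. Whether the makeup of the samples had a part in the unc-25 difference was not tested.

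**Figure D3:**
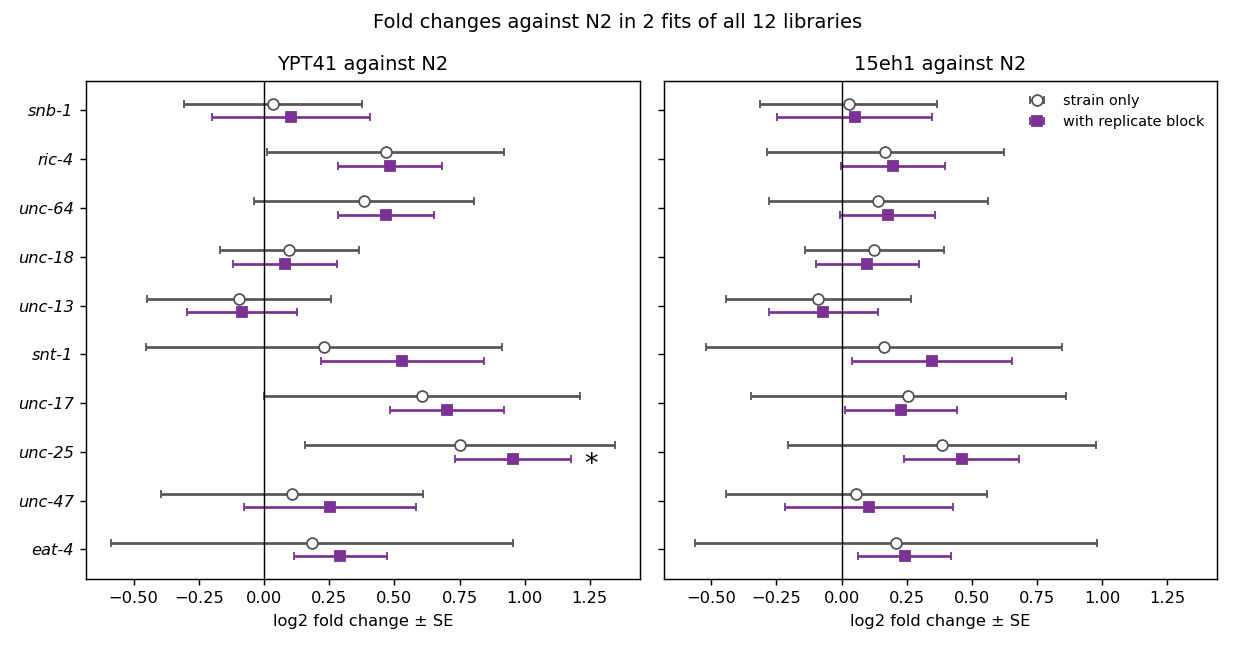
Log2 fold changes of the 10 genes with standard errors, for YPT41 against N2 on the left and 15eh1 against N2 on the right; open circles are from the fit with strain only and squares from the fit with a replicate block. The asterisk marks the single call, unc-25 in YPT41 with the block, at 0.96 ± 0.22.

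The overlap of the libraries was also counted. None of the 10 genes had all 4 YPT41 libraries above all 4 N2 libraries, which 3.75% of tested genes had, and none had all 4 below, which 1.82% had. A set of 4, unc-64, snt-1, unc-17 and unc-25, was higher in YPT41 in all 4 same-numbered pairs, against 16.2% of tested genes. In replicates 2 to 4, unc-17 and unc-25 had all 3 YPT41 libraries above all 3 N2 libraries, and the 3 and 3 libraries did not overlap for 21.4% of tested genes, counting both directions. This separation is in TMM-scaled CPM, with factors of 1.08, 1.09 and 0.778 in YPT41 and 1.16, 1.16 and 1.07 in N2. Ratios to snb-1 counts, free of this scaling but moving with snb-1, overlapped between the strains. For unc-25 they were 0.699, 0.547 and 0.405 in YPT41 and 0.383, 0.560 and 0.491 in N2. For unc-17 they were 0.490, 0.391 and 0.409 in YPT41 and 0.428, 0.384 and 0.425 in N2. Over these replicates unc-17 averaged 88.4 ± 22.3 CPM in YPT41 and 59.8 ± 7.8 CPM in N2 (SD, n = 3 each), and unc-25 averaged 109 ± 5.0 CPM in YPT41 and 68.9 ± 11.6 CPM in N2. Neither gene passed the test there, as 1.01% of tested genes did, with an edgeR adjusted p of 0.276 for unc-17. The median difference of the 10 genes was 0.80, 0.05, 0.28 and 0.52 in log2 CPM for pairs 1 to 4, beside 0.07, 0.02, 0.12 and 0.15 over all tested genes. It was therefore largest in pairs 1 and 4 and close to the other genes in pair 2.

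**Figure D4:**
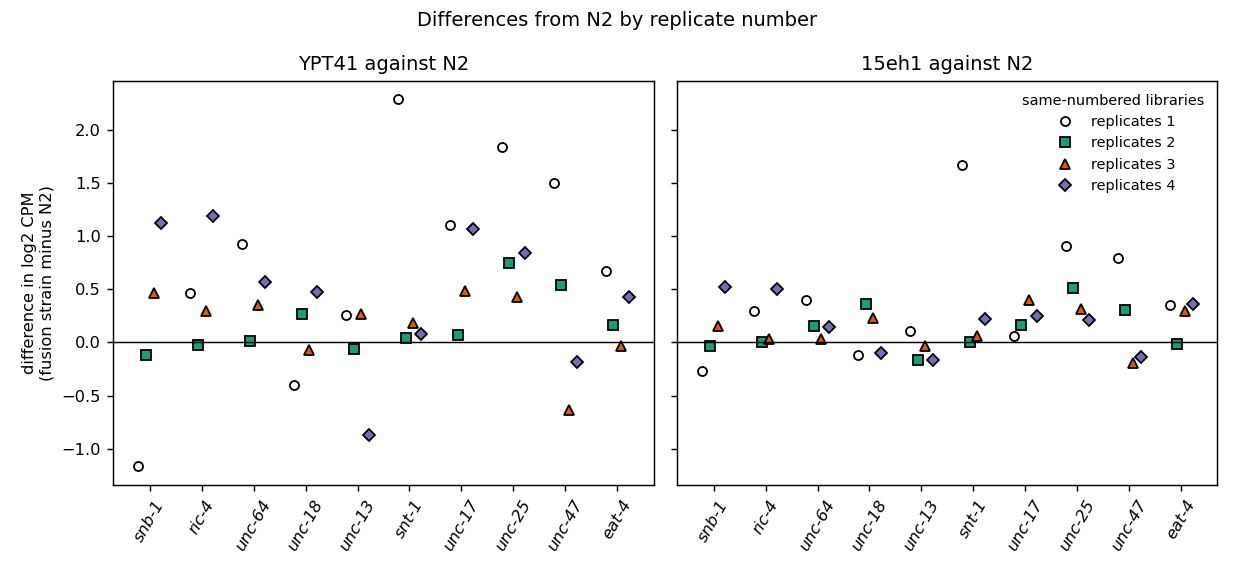
Differences in log2 CPM between same-numbered libraries, for YPT41 minus N2 on the left and 15eh1 minus N2 on the right, with 1 point per gene and replicate number. All 4 points of unc-25 lie above 0 in both panels, and those of snb-1 and unc-13 lie on both sides of 0.

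In 15eh1 against N2, the corresponding question concerns chromosome V. Of the 10 genes, 9 again lay above 0, but by less, with a median log2 fold change of 0.15 against 0.01 for all tested genes. The median was −0.13 without N2 replicate 1, −0.02 without 15eh1 replicate 3 and 0.02 without 15eh1 replicate 2, so its direction depended on single libraries. Over replicates 2 to 4, 8 of the 10 genes lay above 0, beside 51.4% of tested genes. The largest fold changes over 4 replicates were those of unc-25, with 71.1 ± 35.5 CPM in 15eh1 and 54.4 ± 30.3 CPM in N2 (log2 fold change 0.39 ± 0.59), and unc-17, with 57.4 ± 29.8 CPM in 15eh1 and 48.1 ± 24.3 CPM in N2 (0.26 ± 0.60). The remaining 8 were between −0.09 for unc-13 and 0.21 for eat-4. No member was called, and no gene of the whole table was called in this fit (0.00%). At an unadjusted p under 0.05 there were 206 genes by edgeR, 1.56% of those tested and none of them a member, and DESeq2 called 18 genes after adjustment. With the replicate block, 9 genes or 0.0683% were called and again no member, with unc-25 at 0.46 ± 0.22 (edgeR adjusted p = 0.987). A set of 5 genes, ric-4, unc-64, snt-1, unc-17 and unc-25, was higher in 15eh1 in 4 of 4 same-numbered pairs, against 14.6% of tested genes. In replicates 2 to 4, only unc-13 of the 10 separated the strains, with all 3 15eh1 libraries at 105 to 108 CPM, below the N2 libraries at 109.9 to 121 CPM, and 15.4% of tested genes were separated in one direction or the other. Both comparisons with N2 use the same 4 N2 libraries, so their shared direction is not independent.

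Between the fusion strains, 15eh1 against YPT41, 3 of the 10 genes lay above 0, where 48.6% of all tested genes did. Over replicates 2 to 4 it was 5 of the 10, beside 49.5% of tested genes. With all 12 libraries, the median log2 fold change of the 10 genes was −0.06, beside −0.02 for all tested genes. It was 0.04 without YPT41 replicate 2, 0.07 without 15eh1 replicate 1 and 0.01 without N2 replicate 1 or 4. No member was called, while 24 genes were called in all, 0.182% of those tested. The value furthest from 0 was that of unc-25, at −0.37 ± 0.59 (edgeR adjusted p = 0.999), or −0.49 ± 0.22 with the block (adjusted p = 0.285), where 1.83% of tested genes were called. It was lower in 15eh1 in 4 of 4 same-numbered pairs, as 14.1% of tested genes were, and no other member was. In replicates 2 to 4 the 15eh1 libraries of unc-25, at 72.6 to 103 CPM, lay below those of YPT41, at 103 to 113 CPM, by a margin of under 1 CPM between the nearest libraries, and 16.8% of tested genes were separated in one direction or the other. The call of unc-25 in YPT41 against N2 and the absence of one in 15eh1 against N2 are therefore not shown to differ.

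By position, the members fall on all 6 chromosomes. On chromosome II, joined to X in YPT41, lies snt-1, whose log2 fold change in YPT41 against N2 was 0.23 ± 0.68. Chromosome V, joined to X in 15eh1, carries snb-1 and ric-4, at 0.03 ± 0.34 and 0.17 ± 0.45 in 15eh1 against N2. On X itself, unc-18 was at 0.10 ± 0.27 in YPT41 against N2 and at 0.13 ± 0.27 in 15eh1 against N2. None of these 4 lies near either chromosome end in the RefSeq gene order. Tested genes to the left and to the right numbered 748 and 1887 for snb-1, and 1303 and 1332 for ric-4. They numbered 855 and 1274 for snt-1, and 901 and 1096 for unc-18. The 2 members closest to an end, unc-64 and unc-25, have 85 and 117 tested genes between them and the right end of chromosome III, which is joined to X in neither strain. By the same annotation unc-64 overlaps set-25, eat-4 overlaps ZK512.7 and ZK512.2, and ric-4 overlaps the non-coding RNA Y22F5A.10. The strand setting of the counting is not given in the sources used here, so reads of these overlapping genes may be shared or dropped.

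The rest of the synaptic pathway was followed in 7 lists. With strain as the only term, none of 29 active zone and release regulators, 9 vesicle recycling genes, 21 genes of acetylcholine, 9 of GABA, 22 of glutamate and 22 of monoamine signalling, or 11 pan-neuronal markers passed in any of the 3 comparisons. Their medians in YPT41 against N2 were 0.12, −0.21, 0.20, 0.24, 0.10, 0.18 and 0.24 on the log2 scale, beside 0.03 for all tested genes. Within replicates 2 to 4 the medians were 0.02, −0.09, −0.01, −0.05, −0.04, 0.11 and 0.27, beside 0.02, so the direction turned for the genes of acetylcholine, GABA and glutamate. With the replicate block, 1 acetylcholine gene and 1 glutamate gene were called higher in YPT41 than in N2, eat-2 and vglu-2. These are 1 of 21 and 1 of 22 genes, where 4.10% of all tested genes were called higher in that fit. The nicotinic receptor subunit gene eat-2, which acts in pharyngeal muscle, was counted at 4.47 ± 4.01 CPM in YPT41 and 1.42 ± 0.68 CPM in N2, with a blocked log2 fold change of 1.50 ± 0.39 (edgeR adjusted p = 0.0485). It was not called in the other fits, with an adjusted p of 0.599 with strain only, 0.120 in replicates 2 to 4 and 0.131 in replicates 2 to 4 with the block. A homolog of the vesicular glutamate transporters, vglu-2, had 62.997 ± 13.96 CPM in YPT41 and 29.3 ± 8.7 CPM in N2. All 4 of its YPT41 libraries lay above all 4 N2 libraries, as for 3.75% of tested genes. Its log2 fold change was 1.10 ± 0.29 with strain only (adjusted p = 0.185), 1.13 ± 0.18 with the block (adjusted p = 0.00715) and 0.91 ± 0.17 in replicates 2 to 4 (adjusted p = 0.0366), and it missed the threshold in replicates 2 to 4 with the block, also at 0.91 (adjusted p = 0.0512). It was also called in 15eh1 against YPT41 with the block, at −0.91 ± 0.18 (adjusted p = 0.0281), but not in replicates 2 to 4, with an adjusted p of 0.0710 without the block and 0.0920 with it. By contrast eat-4, the neuronal transporter of the same family, was at 0.19 ± 0.77 in YPT41 against N2 with strain only and 0.29 ± 0.18 with the block (adjusted p = 0.351). The glutamate-gated chloride channel gene glc-1 averaged 33.4 ± 21.9 CPM in YPT41 and 9.25 ± 2.27 CPM in N2, with a blocked log2 fold change of 1.74 ± 0.49 that did not pass (adjusted p = 0.0651).

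Among the pan-neuronal markers, 2 of 11 had an unadjusted edgeR p under 0.05 in YPT41 against N2 with strain only, where 8.82% of tested genes did. With the block 4 of 11 did, where 23.2% of tested genes did, and 0 markers passed after adjustment in either fit. The neuropeptide processing enzyme gene egl-21, a pan-neuronal marker here, stood at 714 ± 343 CPM in YPT41 and 401 ± 93.3 CPM in N2, with a log2 fold change of 0.83 ± 0.37 (edgeR adjusted p = 0.536). The kinase gene unc-51 was at 250 ± 47.7 CPM in YPT41 and 179 ± 23.03 CPM in N2 (0.48 ± 0.21, adjusted p = 0.544). The GABAergic motor neurons are specified by the transcription factor UNC-30, which acts on unc-25 and unc-47. Its gene unc-30 had 12.3 ± 5.7 CPM in YPT41, 10.5 ± 2.0 CPM in 15eh1 and 8.702 ± 2.13 CPM in N2. It was higher than in N2 in 4 of 4 pairs for YPT41, as 16.2% of tested genes were, and in 3 of 4 for 15eh1. Any part of unc-30 in the unc-25 difference was not tested. The corresponding factor gene of cholinergic motor neurons, unc-3, averaged 11.8 ± 2.4 CPM in YPT41, 11.9 ± 1.8 CPM in 15eh1 and 9.91 ± 0.93 CPM in N2. In 15eh1 against N2 with the block, none of the 7 lists held a call. The clathrin heavy chain gene chc-1 was the vesicle recycling gene with the smallest p in both comparisons with N2, at 552 ± 97.5 CPM in YPT41, 584 ± 109 CPM in 15eh1 and 666 ± 106 CPM in N2, with log2 fold changes of −0.27 ± 0.22 and −0.19 ± 0.22 in YPT41 and 15eh1.

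The 10 genes differed in how closely they followed their common profile, taken as the mean over the 10 of log2 CPM centred on each gene's mean. Likeness was measured as the root mean square difference from this profile, for which the median tested gene had 0.81 over 12 libraries. Among members unc-64 was closest, at 0.11, then ric-4 at 0.17 and unc-47 at 0.28. Farthest were snb-1 at 0.92, eat-4 at 0.62 and snt-1 at 0.54. These values are a description, since each member is part of the profile and all libraries share the split of replicate 1. The 5 nearest other genes were DH11.5 at 0.12, the calcium channel beta subunit gene ccb-1 at 0.15, the muscarinic receptor gene gar-3 at 0.15, cwp-4 at 0.16 and the calmodulin-related gene cal-4 at 0.17. Over the 9 libraries of replicates 2 to 4 the nearest were 5 different genes, C17H11.6, wdr-20, fem-1, C11G6.3 and ran-5, at 0.07 to 0.08 where the median tested gene had 0.39. The members then lay between 0.09 for unc-64 and 0.35 for unc-13.

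**Figure D5:**
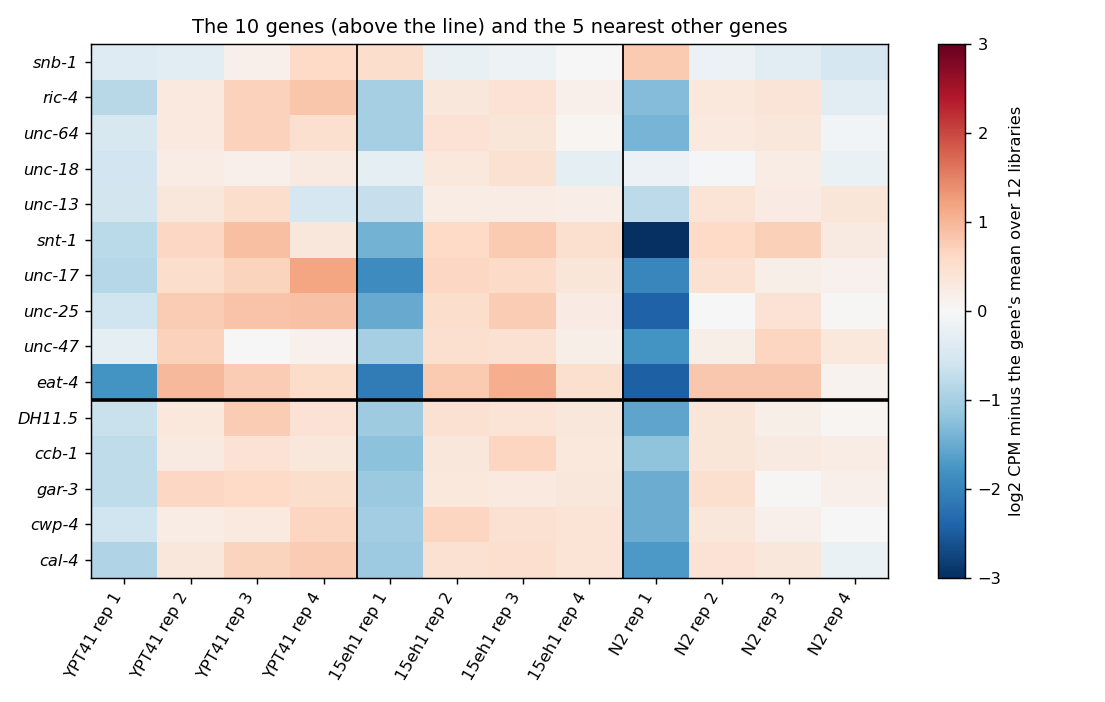
Log2 CPM of each gene minus its mean over the 12 libraries, with the 10 members above the black line and the 5 nearest other genes below it; columns are libraries and vertical lines separate YPT41, 15eh1 and N2. The replicate 1 columns are blue for nearly all genes, and snb-1 is red in replicate 1 of 15eh1 and N2.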

How the data were processed

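Read counts per gene were deposited by the authors as 1 table per library. The tools listed in the submitters' processing notes, with no role given, include TopHat2 2.1.1 and HTSeq. Neither the genome build nor the annotation or strand setting is given in the sources used here. The summary lines of each table, which name no gene, were left out. They held 2.48% to 4.25% of a library as reads outside features, 0.656% to 0.893% as ambiguous and 13.2% to 22.7% as not uniquely placed. The series holds 165 samples, of which 153, ChIP-seq and input samples, are not analysed here.

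From these counts, CPM with TMM factors and log2 CPM with a prior count of 2 were computed. The test was edgeR's quasi-likelihood test (edgeR 4.0.16, R 4.3.3) after filterByExpr, fitted once to the 12 libraries with a term for strain and no other. Two-sided p-values were adjusted over all tested genes by the Benjamini-Hochberg method, at a threshold of 0.05. The script was tested on simulated counts. DESeq2 1.42.0, RLE scaling, no filter, a fit of 2 strains only, replicates 2 to 4, a replicate block and leaving out each library were alternatives. Leaving out a replicate from the blocked fit was chosen after seeing the data.

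Deviations from strain means were correlated between strains for libraries with the same replicate number. All 12 correlations, 0.319 to 0.942, exceeded the limit of 0.1 set for pairing. With replicate 1 left out the correlations spanned −0.12 to 0.44, so the pairing rests largely on replicate 1. No library repeated another of its strain (lowest chi-square per gene 23.4). Symbols, chromosomes and gene order came from the RefSeq table for WBcel235, which matched 19879 identifiers and not 510. The name unc-17 for its identifier came from the rule that chose the genes. The 10 genes and 14 gene lists of 180 entries were chosen with earlier results of these data known, and 3 entries, cha-1, lev-10 and unc-74, matched no identifier. From each list, the 2 genes with the smallest p in each comparison with N2 could be named. To these come the 5 genes nearest the members' profile over 12 and over 9 libraries. Intervals and floors cover counting error only.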

Additional observations from a re-analysis of the deposited data

Results flagged for a closer look

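In 4 of the 30 groups formed by 10 genes and 3 strains, a single library lay apart from the other 3 of its strain by more than Dixon's 95% critical value of 0.829 for the gap as a share of the range. Chance flags about 1 in 20 groups. All 4 were replicate 1 libraries with low values. For unc-18 it was YPT41 replicate 1, at 71.8 CPM where the other YPT41 libraries had 119.6 to 129 CPM. For unc-13 it was 15eh1 replicate 1, at 57.2 CPM against 105 to 108 CPM in that strain, and also N2 replicate 1, at 53.0 CPM against 109.9 to 121 CPM. For unc-25 it was YPT41 replicate 1, at 40.4 CPM against 103 to 113 CPM.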

How the results depend on the processing

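Calls over all genes depended on the replicate term and the libraries used, while calls among the 10 genes did so in 1 case. With the replicate block, that is with pairing by number, 686 genes were called in YPT41 against N2, 9 in 15eh1 against N2 and 241 in 15eh1 against YPT41, compared with 29, 0 and 24 without it, and 1 member was called, unc-25 in YPT41 against N2. The block changed no other member's call. Without replicate 2, 3 or 4 the blocked fit called 389, 172 and 122 genes in YPT41 against N2 and 79, 47 and 60 in 15eh1 against YPT41, and without replicate 4 it called 2 in 15eh1 against N2. Without replicate 3 in that fit, the median of the 10 genes in YPT41 against N2 was 0.53. Replicates 2 to 4 alone gave 134, 2 and 74 calls in the order YPT41 against N2, 15eh1 against N2 and 15eh1 against YPT41, and with the block 160, 1 and 69. DESeq2 called 379, 18 and 202 genes in that order. Without a low-count filter there were 16 calls in YPT41 against N2, and fits of only the 2 strains compared gave 6 in YPT41 against N2 and 8 in 15eh1 against YPT41. Leaving out each of the 12 libraries from the unblocked fit gave 4 to 35, 0 to 1 and 3 to 37 calls in that order and 0 members. The median log2 fold change of the 10 genes then ranged from −0.02 to 0.45, −0.13 to 0.39 and −0.24 to 0.07, the lowest without N2 replicate 1 in both comparisons with N2. RLE scaling moved the median of all genes in YPT41 against N2 by −0.10. The causes of these differences were not tested. Of 660 values of single members under the alternatives, 658 kept their side of the threshold with a shift within their error. In YPT41 against N2, unc-25, unc-17, ric-4 and unc-64 stayed above 0 in all 22 alternatives and snb-1 changed sign in 11. The number of libraries per strain and the spread between them limit what could be detected.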

Other observations

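Genes of tissues other than neurons gave 0 calls with strain as the only term by edgeR, in each of 7 lists and each comparison. In YPT41 against N2 the median log2 fold changes were 0.47 for 8 intestinal genes, 0.38 for 4 pharyngeal muscle genes, −0.12 for 8 body wall muscle genes, −0.07 for 8 epidermal genes, −0.33 for 3 tested glial genes, −0.49 for 15 germline and oocyte genes and −1.70 for 6 vitellogenins. The vitellogenin median in replicates 2 to 4 was −1.04, and the summed level ranged from 2.71 to 242 CPM in YPT41 and from 4.77 to 289.7 CPM in N2. In 15eh1 against N2 the same lists had medians of 0.05, 0.14, −0.13, −0.08, −0.32, −0.07 and −0.53. With the replicate block, the intestinal cysteine protease gene cpr-1 was called higher in YPT41, at 1614 ± 753 CPM against 627 ± 75.4 CPM in N2 (SD, n = 4 each), with a log2 fold change of 1.27 (edgeR adjusted p = 0.0264). The intestinal GATA factor gene elt-7 was also called, at 15.3 ± 3.4 CPM in YPT41 against 8.75 ± 1.83 CPM in N2 (0.80, adjusted p = 0.0325). Neither was called in replicates 2 to 4, with adjusted p-values of 0.170 for cpr-1 and 0.184 for elt-7, or 0.141 and 0.137 with the block. In 15eh1 cpr-1 stood at 558 ± 86.4 CPM and elt-7 at 9.93 ± 2.20 CPM, within the spread of N2. Neither elt-2, another intestinal GATA factor gene, at 20.0 ± 5.6 CPM in YPT41 and 18.3 ± 3.2 CPM in N2, nor the muscle gene unc-22, at 737 ± 257 CPM in YPT41 and 1235 ± 588 CPM in N2, passed in either fit.

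Genes of monoamine transmission, 22 in number, had a median of 0.18 in YPT41 against N2 and 0.06 in 15eh1 against N2, with no call in either fit. The dopamine transporter gene dat-1 averaged 8.24 ± 3.41 CPM in YPT41, 6.29 ± 2.11 CPM in 15eh1 and 5.65 ± 1.30 CPM in N2. For cat-4, which makes a cofactor of dopamine and serotonin synthesis, the means were 22.8 ± 4.8 CPM in YPT41, 15.5 ± 3.4 CPM in 15eh1 and 18.6 ± 6.1 CPM in N2.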
